A study of Mus musculus with 20 samples.

Results

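The genes of GDNF and neurotrophin signalling were followed in single limbs of mouse embryos of the 129Sv strain at embryonic day 13.5. The members were 9 ligand and receptor genes chosen by symbol: the ligand genes Gdnf, Bdnf and Ntf3, the co-receptor genes Gfra1 and Gfra2, and the receptor genes Ret, Ngfr, Ntrk2 and Ntrk3. A probe set named for 1 gene was found for 8 of them, among 19938 genes tested, and each of the 8 had 1 probe set. Ntf3 had none and was not analysed here. Each Affymetrix whole-transcript array carried the RNA of 1 limb, and the 20 arrays formed 4 groups of 5: Lmx1b -/- forelimbs, wild-type forelimbs, Lmx1b -/- hindlimbs and wild-type hindlimbs. Lmx1b, which encodes a transcription factor of the LIM-homeodomain class, is made in dorsal limb mesenchyme and gives it dorsal identity, and the series asked which limb genes it controls. The labels name no tissue limit for the null allele, so a difference in a limb need not arise in the dorsal mesenchyme. Levels are log2 intensities, and a gene was called where the Benjamini-Hochberg adjusted p over all genes (limma) was under 0.05.

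GDNF is a secreted survival and guidance factor that binds the membrane-anchored co-receptor encoded by Gfra1, and the pair then activates the receptor tyrosine kinase encoded by Ret. The co-receptor encoded by Gfra2 prefers the related ligand neurturin. The neurotrophins encoded by Bdnf and Ntf3 act through the tyrosine kinases TrkB (Ntrk2) and TrkC (Ntrk3), and the receptor p75 (Ngfr) binds all neurotrophins. In the mouse limb, GDNF helps motor axons that carry Ret turn into the dorsal limb, and NT3, the product of Ntf3, sustains the sensory neurons of muscle. The cell bodies of these neurons lie outside the limb, so RNA from a limb comes mainly from mesenchyme, muscle, vessels, skin and the glia along the nerves. In such mixed tissue, fewer cells of a type and less RNA per cell cannot be told apart.

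Marker genes followed the labels. Lmx1b lay between 5.60 and 6.10 in the 10 Lmx1b -/- arrays, against 6.14 to 6.52 in the 10 wild-type arrays, without overlap. Whether its probes lie in the deleted part was not analysed here. Pitx1, a hindlimb identity factor, lay between 8.22 and 8.58 in hindlimbs, against 5.18 to 5.75 in forelimbs, and the forelimb factor Tbx5 lay between 4.38 and 5.09 in hindlimbs, against 8.26 to 8.93 in forelimbs. Prrx1, a gene of limb mesenchyme, was between 9.50 and 9.92 in every array. Array medians ran from 4.84 to 4.99. Y-linked genes and Xist marked 13 male and 7 female arrays. The Lmx1b -/- forelimbs held 2 male and 3 female arrays, the wild-type forelimbs 5 males, and each hindlimb group 3 males and 2 females. Whether each limb came from its own embryo is not stated in the labels, which number biological replicates. The p-values therefore speak to variation among these 20 limbs.

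In limbs without Lmx1b, 2 receptor genes of these pathways fell and none of the 8 rose. They were the GDNF co-receptor gene Gfra1, at 1.33-fold below wild type over both limb types, and the TrkC gene Ntrk3, at 1.28-fold below. The same test called 2.04% of all genes, 1.57% lower and 0.466% higher. Members had a median change of -0.11 on the log2 scale and all genes one of -0.0021. The ligand genes Gdnf and Bdnf, the co-receptor gene Gfra2 and the receptor genes Ret, Ngfr and Ntrk2 did not pass this test. The plot of levels by array shows all 8 genes.

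**Figure D1:**
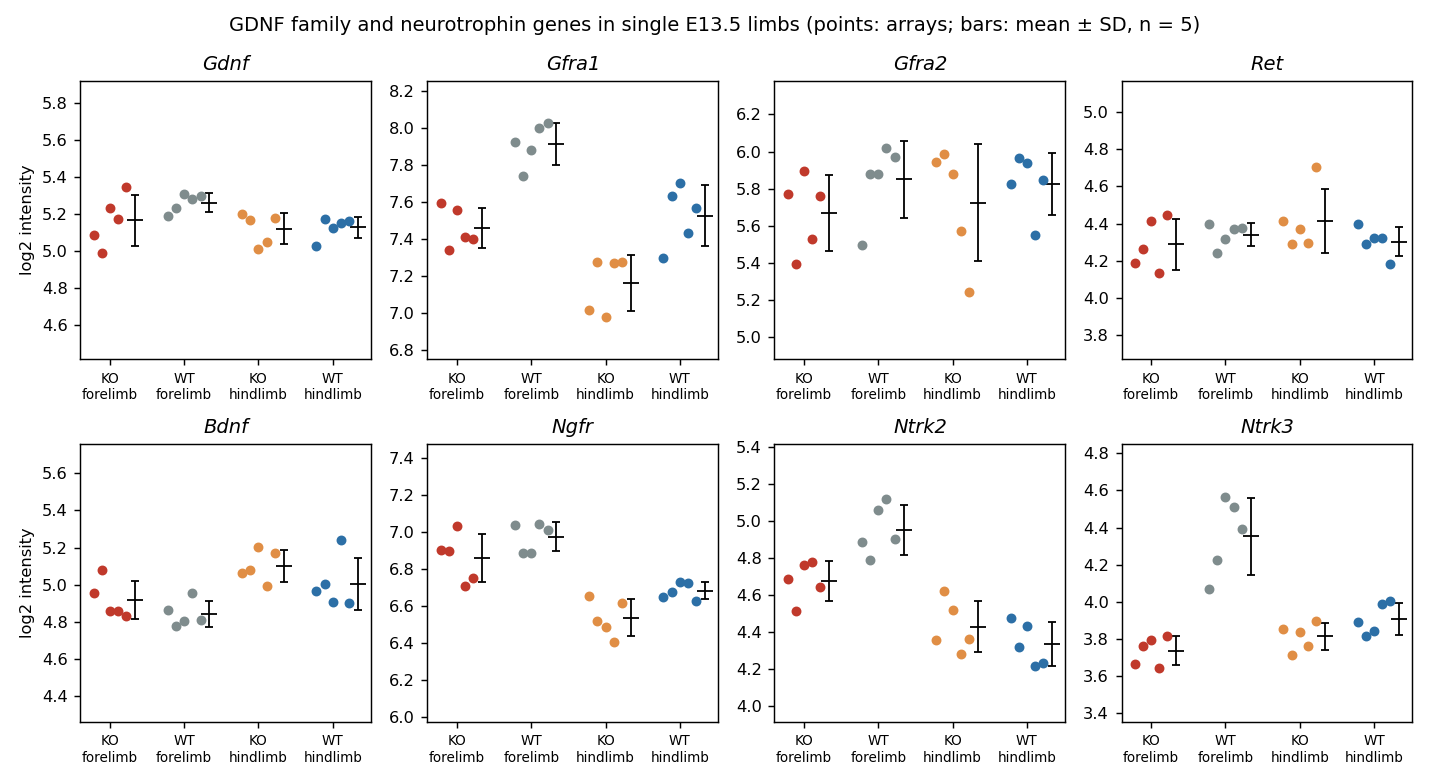
Log2 intensity of the 8 members (vertical axes, each spanning the same 1.5 log2 units) in Lmx1b -/- (KO) and wild-type (WT) forelimbs and hindlimbs; points are arrays, and bars are the mean and SD of 5 arrays. Gfra1 is lower in KO than in WT within both limb types, and Ntrk3 stands high only in WT forelimbs, at 4.07 to 4.56.

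Gfra1 was lower in every Lmx1b -/- limb than in every wild-type limb of the same type. In forelimbs its log2 levels were 7.59, 7.34, 7.56, 7.41 and 7.40 in Lmx1b -/- arrays, against 7.92, 7.74, 7.88, 8.0 and 8.03 in wild-type arrays. In hindlimbs they were 7.02, 7.27, 6.98, 7.27 and 7.28 in Lmx1b -/- arrays, against 7.30, 7.63, 7.70, 7.43 and 7.57 in wild-type arrays. The groups did not overlap in either limb type, though in hindlimbs the highest knockout array and the lowest wild-type array lay close together. A lower, non-overlapping pattern in both limb types held for 0.271% of all genes, and in hindlimbs alone for 0.903%. Over both limb types the log2 level of Gfra1 fell by 0.41 ± 0.060 (SE; limma, adjusted p = 0.000334).

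By limb type, Gfra1 fell by 0.45 in forelimbs (SE 0.085; limma, adjusted p = 0.00635). The change in hindlimbs was -0.36 (SE 0.085) and did not pass the test (limma, adjusted p = 0.0953). The difference between these effects was 0.09 (SE 0.12, 95% interval -0.16 to 0.34; limma, adjusted p = 1.00), so a smaller effect in hindlimbs was not shown. The hindlimb change passed when wild-type hindlimb replicate 6, the lowest wild-type array, was left out (-0.42, adjusted p = 0.0341). The forelimb call was lost with the male arrays only (-0.42, adjusted p = 0.238) and with the muscle (-0.23, adjusted p = 0.404), glia (-0.31, adjusted p = 0.222) or axon (-0.44, adjusted p = 0.0525) marker list as a covariate. The call over both limb types was lost with the 13 male arrays only (-0.33, adjusted p = 0.111) and with the axon marker list as a covariate (-0.40, adjusted p = 0.0541). The axon list itself averaged 5.24 and 5.19 in Lmx1b -/- forelimbs and hindlimbs, against 5.32 and 5.31 in wild type. In forelimbs the glia list averaged 5.30 in Lmx1b -/- and 5.54 in wild-type arrays, and the muscle list 7.62 and 7.92. These list means thus differed with genotype, so fits that hold them separate list and genotype poorly. The part of each was not tested. Among male forelimbs alone, the 2 Lmx1b -/- arrays lay at 7.40 and 7.59 and the 5 wild-type arrays at 7.74 to 8.03. The wild-type forelimbs held no female array, so sex and genotype are partly confounded there. The part of sex was not tested.

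A promoter window of Gfra1 is shown because this gene differed with both genotype and limb type. That of Ngfr is shown because it differed with limb type in both genotypes. The Gfra1 window lies inside the annotated gene (chr19:58235581-58455946), so its start site is an internal one. Both windows are RefSeq promoters on GRCm38.p6, from 250 bases before to 50 bases after an annotated start site, and capitals mark the E-box CAGCTG, a motif bound by muscle bHLH factors and chosen after the relation of Gfra1 to muscle genes was seen.
Gfra1, chr19:58455349-58455648, minus strand: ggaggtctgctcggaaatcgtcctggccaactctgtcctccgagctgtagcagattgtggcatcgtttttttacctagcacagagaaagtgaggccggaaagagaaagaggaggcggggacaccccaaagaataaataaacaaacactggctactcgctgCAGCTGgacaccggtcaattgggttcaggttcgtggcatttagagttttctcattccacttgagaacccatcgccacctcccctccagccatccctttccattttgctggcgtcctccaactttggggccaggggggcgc
Ngfr, chr11:95587649-95587948, minus strand: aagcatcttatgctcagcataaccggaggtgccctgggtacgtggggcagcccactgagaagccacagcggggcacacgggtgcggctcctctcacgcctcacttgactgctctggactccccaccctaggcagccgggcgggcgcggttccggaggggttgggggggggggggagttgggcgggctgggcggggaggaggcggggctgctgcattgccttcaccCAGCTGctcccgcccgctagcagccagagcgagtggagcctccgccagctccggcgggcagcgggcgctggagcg
Counted from the start site, the E-box starts at position -90 in Gfra1 and -25 in Ngfr. Of 32851 windows of this length, 16.3% hold CAGCTG, which reads the same on both strands, and so do 3 of the 14 windows of members. The remaining one is a Bdnf window, with the E-box at -171, while the window of Ntrk2 holds none. TAATTA, a core bound by LIM-homeodomain proteins and likewise the same on both strands, is in 5.29% of all windows and in none of the 14 windows of the 6 members that had any (Gdnf, Gfra1, Bdnf, Ntf3, Ngfr and Ntrk2). The window of Ngfr is rich in G and C (71.7%), that of Gfra1 less so (54.0%), and the median of all windows is 52.7%. These matches describe the letters of short windows and say nothing of binding.

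Ntrk3 fell in forelimbs, and its hindlimb change was not called. Its forelimb levels were 3.66, 3.76, 3.79, 3.64 and 3.82 in Lmx1b -/- arrays, against 4.07, 4.22, 4.56, 4.51 and 4.39 in wild-type arrays. Its hindlimb levels were 3.85, 3.71, 3.84, 3.76 and 3.90 in Lmx1b -/- arrays, against 3.89, 3.82, 3.84, 3.98 and 4.0 in wild-type arrays. All 5 knockout forelimbs were below the lowest wild-type forelimb, as held in this direction for 1.72% of all genes, while the hindlimb groups overlapped. In forelimbs the log2 level of Ntrk3 fell by 0.62 ± 0.079 (SE; limma, adjusted p = 7.76e-05), a 1.53-fold difference. With 16 added to each intensity before the log, the forelimb change was -0.32 (adjusted p = 0.000292), that over both limb types -0.18 (adjusted p = 0.00244), and both remained called. In hindlimbs the change was -0.09 (SE 0.079, 95% interval -0.26 to 0.07; limma, adjusted p = 0.977).

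The test of the difference between the effects on Ntrk3 gave 0.52 (SE 0.111, 95% interval 0.29 to 0.75) and missed the threshold over all genes (limma, adjusted p = 0.255; 0.27 with the offset of 16, adjusted p = 0.477). That test called 0.0201% of all genes, 4 in number, and none of the members. Of the members, 2 had an unadjusted p under 0.05, a level at which the share of all genes was not counted. Without wild-type forelimb replicate 1, the lowest wild-type forelimb array, Ntrk3 passed it (0.60, adjusted p = 0.0169), and it also passed with array weights (0.60, adjusted p = 0.0341). Ntrk3 is a dim probe set, with a mean of 3.95 over all arrays, under the level of 5 below which 43.3% of genes lay. The forelimb change missed the threshold with male arrays only (-0.61, adjusted p = 0.0565), and so did the change over both limb types (-0.40, adjusted p = 0.0571). With the axon list as a covariate, the change over both limb types was -0.34 (adjusted p = 0.0859).

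In forelimbs, Gfra1 and Ntrk3 were again the 2 members called, both lower, where the test called 1.27% of all genes, 1.03% lower and 0.241% higher. In hindlimbs none of the 8 was called by limma, where the test called 0.231% of all genes, 0.226% lower and 0.00502% higher. Of the 8, 2 had an unadjusted p under 0.05, and the share of all genes at that level was not counted. Forelimb Ntrk2, the TrkB gene, had levels of 4.69, 4.51, 4.76, 4.78 and 4.64 in Lmx1b -/- arrays, against 4.89, 4.79, 5.06, 5.12 and 4.90 in wild-type arrays. These groups did not overlap, as held in this direction for 1.72% of all genes, yet the change of -0.27 (SE 0.079) did not pass the test over all genes (limma, adjusted p = 0.104). In hindlimbs Ntrk2 averaged 4.43 ± 0.14 in Lmx1b -/- and 4.34 ± 0.12 in wild-type arrays (SD, n = 5 each), and the groups overlapped. The difference between its 2 effects was 0.37 (SE 0.112; limma, adjusted p = 1.00).

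The ligand genes gave small differences. Gdnf averaged 5.17 ± 0.14 in Lmx1b -/- and 5.26 ± 0.05 in wild-type forelimbs, and 5.12 ± 0.09 in Lmx1b -/- and 5.13 ± 0.06 in wild-type hindlimbs (SD, n = 5 each). Over both limb types its change was -0.05 (95% interval -0.14 to 0.04; limma, adjusted p = 0.635), so at these probes a fall as large as that of Gfra1 lies outside the interval. The mean of Gdnf over all arrays, 5.17, was close to the array medians (4.84 to 4.99), while that of Gfra1 was 7.52. The interval therefore limits the change of a dim signal, and not that of the RNA. Bdnf averaged 4.92 ± 0.10 in Lmx1b -/- and 4.84 ± 0.07 in wild-type forelimbs, and 5.10 ± 0.09 in Lmx1b -/- and 5.0 ± 0.14 in wild-type hindlimbs (SD, n = 5 each). Its change over both limb types was 0.09 (95% interval -0.02 to 0.19; limma, adjusted p = 0.434).

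Of the other receptors, Ret, the signalling partner of Gfra1, gave no called difference. Its levels ran from 4.13 to 4.45 in Lmx1b -/- forelimbs, against 4.24 to 4.39 in wild-type forelimbs, and from 4.29 to 4.71 in Lmx1b -/- hindlimbs, against 4.18 to 4.40 in wild-type hindlimbs. The change over both limb types was 0.03 (95% interval -0.08 to 0.14; limma, adjusted p = 0.855). Gfra2 was the most variable member between replicates, with an SD of 0.32 in Lmx1b -/- hindlimbs, and its change was -0.14 (95% interval -0.33 to 0.05; limma, adjusted p = 0.511). Ngfr, which is made by the glia of embryonic nerves, changed by -0.13 (95% interval -0.23 to -0.03; limma, adjusted p = 0.167), and the forelimb and hindlimb groups each overlapped. The plot of differences gives the intervals of all 8 members for genotype and for limb type.

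**Figure D2:**
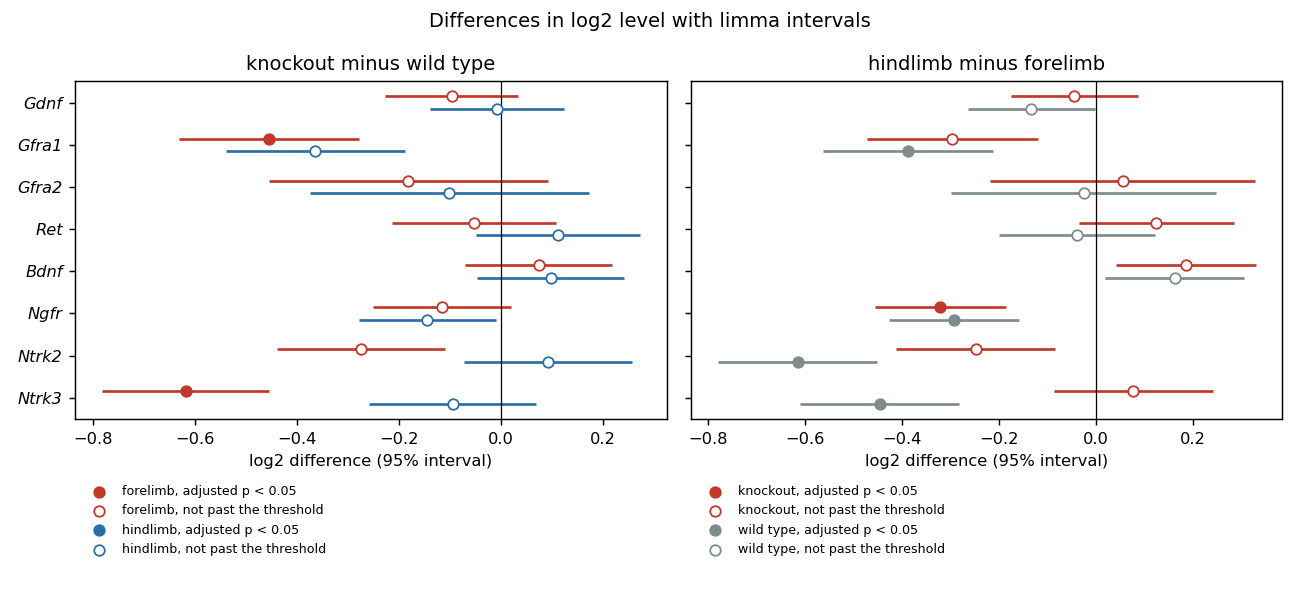
Differences in log2 level for the 8 members, knockout minus wild type (left panel) and hindlimb minus forelimb (right panel); circles are limma estimates, filled where the adjusted p over all genes is under 0.05, and lines are 95% intervals. All filled circles lie left of 0. They are Gfra1 and Ntrk3 in forelimbs, 4 receptor genes for limb type in wild type, and Ngfr for limb type in knockout.

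In wild-type limbs, 4 receptor genes of these pathways differed by limb type. Gfra1, Ngfr, Ntrk2 and Ntrk3 were lower in wild-type hindlimbs than in wild-type forelimbs, and none of the 8 members was higher, where the test called 3.26% of all genes, 2.49% lower and 0.772% higher. For each of these 4 genes, all 5 wild-type hindlimbs lay below all 5 wild-type forelimbs, as held for 3.20% of all genes. Gdnf also lay lower without overlap, at 5.03 to 5.17 in hindlimbs and 5.19 to 5.31 in forelimbs, but its change of -0.13 did not pass the test (limma, adjusted p = 0.294). The median change of the 8 members was -0.21, beside 0.017 for all genes. Because the wild-type forelimbs serve in both, this comparison and the forelimb comparison of genotypes share their arrays.

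Ntrk2 differed most by limb type among the members. Its wild-type hindlimb levels were 4.48, 4.32, 4.43, 4.22 and 4.23, against the wild-type forelimb levels given above, and the log2 difference was -0.61 ± 0.079 (SE; limma, adjusted p = 0.000104). Ntrk3 fell by 0.45 (SE 0.079, adjusted p = 0.00242) and Gfra1 by 0.39 (SE 0.085, adjusted p = 0.0125) in the same fit. With the offset of 16 the changes were -0.38 for Ntrk2 (adjusted p = 0.000119) and -0.23 for Ntrk3 (adjusted p = 0.00369). Ngfr had levels of 6.65, 6.67, 6.73, 6.73 and 6.63 in wild-type hindlimbs, against 7.04, 6.89, 6.89, 7.04 and 7.01 in wild-type forelimbs. It fell by 0.29 (SE 0.065; limma, adjusted p = 0.0138). With the male arrays only, Ngfr (adjusted p = 0.0600) and Ntrk3 (adjusted p = 0.0643) missed the threshold.

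Without Lmx1b, Ngfr alone of the 8 was called between limb types, where the test called 0.617% of all genes, 0.441% lower and 0.176% higher. Its levels were 6.66, 6.52, 6.49, 6.41 and 6.62 in Lmx1b -/- hindlimbs, against 6.90, 6.90, 7.03, 6.71 and 6.75 in Lmx1b -/- forelimbs, without overlap. Such a lower, non-overlapping pattern held for 0.943% of all genes. Ngfr fell by 0.32 (SE 0.065; limma, adjusted p = 0.0204), close to its difference in wild type. This call was lost when the arrays of those 2 groups were fitted alone (adjusted p = 0.147), with male arrays only (adjusted p = 0.835) and with the muscle marker list as a covariate. It was also lost without Lmx1b -/- forelimb replicates 1, 2 or 3 or hindlimb replicates 8 or 9 (adjusted p from 0.0501 to 0.0781).

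The other called members of the wild-type comparison gave these values in Lmx1b -/- limbs. Gfra1 differed by -0.30 (SE 0.085; limma, adjusted p = 0.152) and, as held in this direction for 0.943% of all genes, did not overlap between Lmx1b -/- hindlimbs and forelimbs. Ntrk2 differed by -0.25 (SE 0.079; limma, adjusted p = 0.223). Ntrk3 differed by 0.08 (SE 0.079, 95% interval -0.09 to 0.24; limma, adjusted p = 0.823). Bdnf was the 1 member with a positive difference in both genotypes, 0.19 in Lmx1b -/- and 0.16 in wild-type limbs, and passed in neither (limma, adjusted p = 0.334 and 0.234).

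Other genes of the same pathways were read from lists, beside the 2.04% of all genes called for genotype. Of 21 measured genes of the GDNF pathway outside the members, none fell and Shc3 rose, with a median change of -0.041. Shc3, an adaptor gene for Trk receptors, averaged 5.41 ± 0.20 in Lmx1b -/- and 4.94 ± 0.07 in wild-type forelimbs (SD, n = 5 each) and rose by 0.32 over both limb types (SE 0.059; limma, adjusted p = 0.00465), a call lost with male arrays only and with the axon list as a covariate. Of 18 measured genes of the neurotrophin pathway, Islr2 and Lrig1 fell and none rose, with a median change of -0.082. Islr2, which in the mouse modulates Trk and Ret signalling in axons, fell by 0.34 (SE 0.078; limma, adjusted p = 0.0239). Lrig1, which encodes a membrane protein that dampens receptor tyrosine kinases, Ret included, fell by 0.30 (SE 0.067; limma, adjusted p = 0.0212). Without Lmx1b -/- forelimb replicate 2, wild-type forelimb replicate 3 or wild-type hindlimb replicate 7, the call of Islr2 was lost (adjusted p up to 0.0551). Both Islr2 and Lrig1 also lost their calls with male arrays only, or with muscle, glia or axon markers added as a covariate (adjusted p up to 0.540 for Islr2 and 0.407 for Lrig1).

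Of 15 measured genes of other limb trophic factors and their receptors, none fell and Hgf rose, with a median change of -0.0044. Hgf, whose product attracts motor axons and muscle precursors through the receptor Met, rose by 0.31 over both limb types (SE 0.080; limma, adjusted p = 0.0481). The call of Hgf was lost in 13 of the 20 fits that left out 1 array. Met itself gave 0.05 (SE 0.071; limma, adjusted p = 0.811). None of the GDNF relatives Nrtn (0.15), Artn (0.09) and Pspn (-0.04), of the co-receptor genes Gfra3 (-0.04) and Gfra4 (-0.11) or of the neurotrophin gene Ntf5 (-0.06) passed, with limma adjusted p from 0.190 to 0.849. Taken by limb type, Shc3 was the 1 gene of the 3 lists called in forelimbs, where it rose by 0.47 (limma, adjusted p = 0.00385). In hindlimbs limma called none of the 3 lists, and 3, 2 and 2 genes of the GDNF, neurotrophin and trophic lists had an unadjusted p under 0.05. How many of all genes reached that unadjusted level was not counted.

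The test by limb type in wild type called 3.26% of all genes, 2.49% lower and 0.772% higher. There Gfra3, the co-receptor gene for artemin, went against the called members. It averaged 6.96 ± 0.18 in hindlimbs and 6.45 ± 0.12 in forelimbs (SD, n = 5 each), higher by 0.50 (SE 0.102; limma, adjusted p = 0.00760). Ncam1, which encodes an alternative GDNF receptor, was lower by 0.34 (SE 0.092; limma, adjusted p = 0.0419). Leaving out 1 array removed the call of Ncam1 in 9 of 20 fits. Kidins220, a scaffold gene of Trk receptors, was the 1 of 18 neurotrophin genes called and was lower by 0.32. Among the 15 trophic genes, Igf1, a growth factor gene, was lower by 0.68 (SE 0.128; limma, adjusted p = 0.00402). After adjustment for the muscle list, the change of Igf1 was -0.09 (adjusted p = 1.00) and that of Gfra3 was 0.77 (adjusted p = 0.235). The cytokine receptor genes Lifr and Il6st were lower by 0.50 and 0.36, Met by 0.38, and the heparin-binding growth factor gene Mdk was higher by 0.19. These smaller calls were lost in 4 (Kidins220, Il6st), 6 (Lifr), 7 (Met) and 14 (Mdk) of the 20 fits that left out 1 array. In Lmx1b -/- limbs, only Shc3 of these 3 lists was called by limb type, lower by 0.39 in hindlimbs (SE 0.084; limma, adjusted p = 0.0265), and it lost the call in 6 of 20 such fits.

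Markers of some tissues that could carry these transcripts differed between groups, and the plot of marker lists shows 3 of the lists. The mean log2 level of 12 skeletal muscle genes, Myog among them, ran from 7.46 to 7.78 in Lmx1b -/- forelimbs, against 7.70 to 8.08 in wild-type forelimbs. In hindlimbs it ran from 7.10 to 7.48 in Lmx1b -/- and from 7.10 to 7.45 in wild-type arrays. By genotype 3 of the 12 fell and none rose (Acta1, Actn2 and Tnnt2, all parts of the sarcomere), beside 1.57% of all genes called lower. By limb type in wild type 10 of 12 were lower in hindlimbs, beside 2.49% of all genes, with a median change of -0.60.

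**Figure D3:**
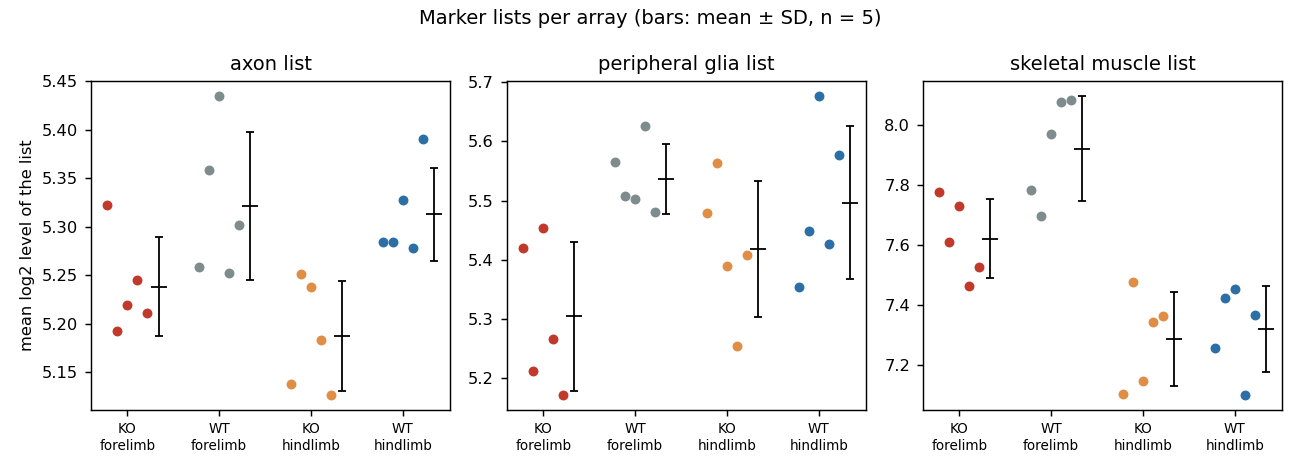
Mean log2 level of the axon (10 genes), peripheral glia (8 genes) and skeletal muscle (12 genes) marker lists per array in KO and WT forelimbs and hindlimbs; points are arrays, bars the mean and SD of 5, and the vertical axes differ in range. The muscle list is highest in WT forelimbs, at 7.70 to 8.08.

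Of 8 measured genes of peripheral glia, Ednrb and S100b fell with the loss of Lmx1b and none rose, with a median change of -0.097, beside 1.57% of all genes called lower and 0.466% higher. Their mean level ran from 5.17 to 5.45 in Lmx1b -/- forelimbs, against 5.48 to 5.63 in wild-type forelimbs, and from 5.25 to 5.56 in Lmx1b -/- hindlimbs, against 5.35 to 5.68 in wild-type hindlimbs. Sox10, the defining factor of these cells, averaged 5.39 ± 0.12 in Lmx1b -/- and 5.48 ± 0.04 in wild-type forelimbs (SD, n = 5 each) and was not called. The call of S100b was lost in 4 of 20 fits without 1 array. Gfra3 belongs to the glia list as well as to the GDNF pathway. Of 10 axon genes, Gap43, Dcx and Snap25 fell and Stmn2 rose, with a median change of -0.021, and the call of Stmn2 was lost in 11 of 20 fits without 1 array. In hindlimbs alone, Gap43 was the only axon gene called and no glia gene was called. The mean level of the axon genes ran from 5.19 to 5.32 in Lmx1b -/- forelimbs, against 5.25 to 5.44 in wild-type forelimbs, and from 5.13 to 5.25 in Lmx1b -/- hindlimbs, against 5.28 to 5.39 in wild-type hindlimbs.

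Of 6 endothelial genes, Tek and Emcn fell by genotype, with a median change of -0.20, beside 1.57% of all genes called lower and 0.466% higher. No endothelial gene was called in hindlimbs alone. Of 6 genes listed for muscle connective tissue Meox2 rose (a call lost without Lmx1b -/- forelimb replicate 4 or wild-type forelimb replicates 4 or 5, adjusted p up to 0.0594). How specific those 6 genes are to that tissue was not tested, so the rise of Meox2 is not assigned to it. None of 6 epidermal genes was called by limma or had an unadjusted p under 0.05, and of 5 melanoblast genes Dct fell. The lowest intensity on any array was 1.65, so no marker could read a log2 level of 0, and detection was not tested. With male arrays only, Tek, Emcn, Dct, Meox2, Ednrb, S100b, Dcx, Snap25, Stmn2, Acta1 and Actn2 lost their calls by genotype, and Gap43 (adjusted p = 0.0130) and Tnnt2 (adjusted p = 0.0459) kept theirs. Once muscle markers entered the fit as a covariate, Gfra1 changed by -0.29 over both limb types and kept its call. The same covariate took the limb-type difference of Gfra1 in wild type to 0.05 (SE 0.110, adjusted p = 1.00). Ngfr lost its limb-type call in both genotypes with this covariate. In wild type the covariate left Ntrk2 at -0.43 (SE 0.140, adjusted p = 0.749) and Ntrk3 at -0.36 (SE 0.146, adjusted p = 0.964). Muscle level and limb type go together in the wild-type arrays, which widens these errors.

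Within groups, Gfra1 followed the muscle list from array to array. After group means were removed, Pearson's r was 0.82 over 20 arrays (permutation p within groups = 0.00018, adjusted p = 0.00504 over 56 relations of 8 members with 7 lists) and Spearman's rho was 0.81 (permutation p = 9e-05, adjusted p = 0.0028). Without the 2 arrays farthest from the median of the muscle list, r was 0.80. Gfra2 followed the endothelial list in the same way, with r = 0.79 (permutation p = 4e-05, adjusted p = 0.00224) and rho = 0.79 (permutation p = 0.0001, adjusted p = 0.0028), and r = 0.72 without the 2 farthest arrays. No other of the 56 relations passed after adjustment by Pearson's r. The nearest was Ret with the axon list, at r = -0.59 and rho = -0.62 (permutation p = 0.00319 and 0.00383, adjusted p = 0.0595 and 0.0715) and r = -0.65 without the 2 farthest arrays. Arrays were permuted within groups, and the arrays share their normalization.

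**Figure D4:**
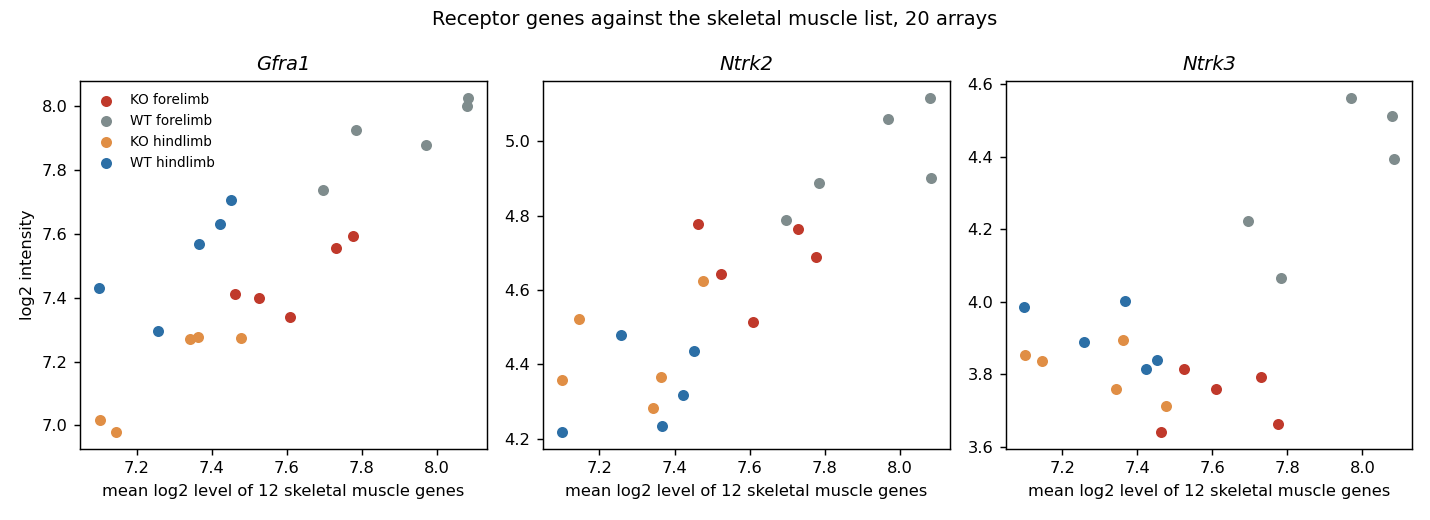
Log2 intensity of Gfra1, Ntrk2 and Ntrk3 (vertical axes, differing in range) against the mean log2 level of 12 skeletal muscle genes (horizontal axes) in 20 arrays coloured by group. Gfra1 rises with the muscle list inside each group, with r = 0.82 after removal of group means, and Ntrk3 is high only in WT forelimbs.

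Ntrk3 gave r = 0.18 with the muscle list, -0.08 with the glia list and 0.08 with the axon list within groups. Its change in forelimbs was -0.57 (limma, adjusted p = 0.00892) after adjustment for the muscle list, -0.64 with the glia list (adjusted p = 0.00407) and -0.60 with the axon list (adjusted p = 0.00145). In forelimbs the glia list did not overlap between genotypes (5.17 to 5.45 in Lmx1b -/-, 5.48 to 5.63 in wild type). The muscle and axon lists also averaged lower in Lmx1b -/- forelimbs, so these fits separate list and genotype poorly. Ngfr gave r = 0.55 with the glia list (permutation p = 0.0261, adjusted p = 0.18; rho = 0.54, permutation p = 0.0237, adjusted p = 0.183; r = 0.42 without the 2 farthest arrays). The part of these tissues in the group differences was not tested beyond these fits.

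The genes most like each member over the 20 arrays differed between members. Gfra1 was most like Dusp27 (r = 0.92), Synpo2l (r = 0.91) and Egflam (r = 0.90), and after removal of group means like Rbm24 (0.89), Mylk4 (0.86) and Lmod3 (0.85). Ntrk3 was most like Grm7 (0.90), Ibsp (0.90) and Cntn1 (0.89), Ntrk2 like Trim72 (0.88), Eps8 (0.88) and Fitm1 (0.88), and Ngfr like Dcc (0.93), Frmpd1 (0.91) and Usp31 (0.89). Gfra2 was most like Cavin3 (0.90), Irx3 (0.86) and Mmp11 (0.83). The best likenesses of Gdnf, Ret and Bdnf were 0.84 (Rnf39), 0.76 (Cnpy1) and 0.83 (Crym). After removal of group means, the best were 0.92 for Gdnf (Tmem141), 0.91 for Gfra2 (Mmp11), 0.89 for Ntrk3 (Card10), 0.86 for Ngfr (Ubac2), 0.84 for Ntrk2 (Crtc2), 0.82 for Bdnf (Barx1) and 0.78 for Ret (Slc25a18). Genes with provisional names were skipped in this ranking. Each value is among the highest of the remaining genes, out of 19938, and the raw ones rest in part on the group means. Among members, with group means removed, the highest r was 0.51 between Gfra2 and Ntrk2 and the lowest -0.38 between Gfra2 and Bdnf, and Gfra1 and Ntrk3 gave -0.06.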

How the data were processed

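RNA from 20 single limbs was hybridised to Affymetrix 1.0 ST arrays, 1 array per limb. The authors deposited linear intensities per probe set, summarised by RMA per the submitters' processing notes. Its version, the genome build and any probe filters were not given in the sources used here. RMA shares information between arrays, so array values are not fully independent. The number of arrays, among other limits, sets the precision.

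Of 35512 probe sets, 21789 were paired with 1 gene symbol, 1621 with several and 12101 with none in the gene table used, and the probe set with the highest mean stood for each of 19938 genes. The log2 of the deposited intensities was taken with no pseudocount. A linear model of 4 group means over all 20 arrays was fitted with limma 3.58.1 (R 4.3.3; lmFit, eBayes), with Benjamini-Hochberg adjustment over all genes and a threshold of 0.05. It was tested on simulated data. Contrasts were genotype (over both limb types and in each), its difference between limb types, and hindlimb against forelimb in each genotype. Tables and permutations used Python 3.11.15, numpy 2.4.6 and pandas 2.3.3, and figures matplotlib 3.10.9.

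The members and gene lists were chosen with earlier results of these data known, so no count over them is independent evidence. Text names all members, the called genes of the pathway lists and a few markers per list by a fixed rule. It also names genes from the 3 most like a member, with provisional names skipped. Alternatives covered the offset, centring, a filter on dim genes, array weights, limb side, sex, marker lists as covariates, blocks and each array left out. Promoters were RefSeq windows (GRCm38.p6).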

Additional observations from a re-analysis of the deposited data

Results flagged for a closer look

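Gfra2 in wild-type forelimbs had 1 array far from the other 4. Replicate 1 was the lowest, at a log2 level of 5.50, against 5.88 to 6.02 in the others, so its gap to the nearest array was 0.732 of the range of the group. It was 1 of 32 combinations of member and group examined, and chance alone marks about 1 in 20.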

How the results depend on the processing

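Calls of members for genotype over both limb types stood at 2, and became 0 with male arrays only, 0 with the axon list as a covariate and 1 with genes of mean log2 under 5 left out, which removes Ntrk3 from the test. In forelimbs the count of 2 became 0 with male arrays only and 1 with the axon, glia or muscle list as a covariate or without dim genes. In hindlimbs the count of 0 became 1 (Gfra1) with a trended, robust variance prior and with the muscle list, and ranged from 0 to 1 over the fits without 1 array. For the difference between limb types, the count of 0 became 1 (Ntrk3) with array weights and ranged from 0 to 1 without 1 array. For limb type in wild type, the count of 4 became 2 without dim genes, 2 with male arrays only and 0 with the muscle list. For limb type in Lmx1b -/- limbs, the count of 1 became 0 with male arrays only, with only the 2 groups fitted and with the muscle list, 2 with the glia list, and ranged from 0 to 1 without 1 array. Male arrays only leaves 13 arrays; otherwise the cause was not tested.

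With the muscle list as a covariate, limb-type changes in wild type turned to 0.054 for Gfra1, 0.054 for Ncam1, 0.082 for Lifr, 0.052 for Il6st, 0.006 for Myh3 and 0.046 for Kdr, none called. Of the alternative values for the 8 members and Lmx1b, 1801 kept their side of the threshold (41 of these, none called, changed sign), 22 lost the call, 6 gained it and 1 called value, that of Gfra1, changed sign. Deviations of wild-type and Lmx1b -/- arrays that share a replicate number in the title correlated above 0.1 in 4 of 10 pairs (-0.313 to 0.256). Pairs without a shared number were not compared, so this leaves pairing by the title's number undecided. With that number as a replicate block, the counts stayed at 2, 2, 0 and 0, and Gfra1 (adjusted p = 0.00207) and Ntrk3 (adjusted p = 0.00259) kept their calls over both limb types, while Islr2 and Lrig1 lost theirs. Dim probe sets (Ret, Bdnf, Ntrk2 and Ntrk3 had mean log2 levels under 5, and Gdnf one of 5.17) limit what their intervals show.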
